A study of Mus musculus with 8 samples.

Results

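The genes described here are 41 components of the BMP and TGF-beta signalling pathways: ligands, latent-ligand binding proteins, receptors, SMAD proteins, inhibitors and target genes. They were taken by symbol from a list, and all 41 were found among the 55487 gene rows of the count table. The list was chosen with earlier results of these data known, so shares among its genes are descriptions. RNA was measured in 8 libraries from mouse embryonic stem cells after 6 days of serum-free differentiation towards precardiac mesoderm. The wild-type parental line E14-Tg2a gave 4 of them and its derivative 4D, which is Tbx1-/-, gave the other 4, and the series text calls each set of 4 biological replicates. Both lines went through the same differentiation, and no further allele or agent is given for either. Tbx1 encodes a T-box transcription factor needed for development of the pharyngeal region and the cardiac outflow tract. The mutant cultures all came from 1 line, so what is due to the genotype and what is particular to line 4D cannot be told apart.

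BMP and TGF-beta ligands are secreted dimers that bind a pair of type I and type II receptor kinases. The activated type I receptor phosphorylates receptor SMADs, SMAD1 and SMAD5 for BMPs and SMAD2 and SMAD3 for TGF-beta and activin, which enter the nucleus with SMAD4. Id and Msx genes are well-known transcriptional targets of BMP signalling, and BMP signals are required for cardiac specification of mesoderm and for formation of the outflow tract. Signalling is limited outside the cell by binding proteins such as noggin, at the receptor by the pseudoreceptor BAMBI, and inside the cell by SMAD6, SMAD7 and ubiquitin ligases.

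In the mutant line, Bmp4, Tgfb1 and Id2 were lower, and no pathway gene was called higher. Bmp4 fell 2.68-fold, Tgfb1 2.47-fold and Id2 1.51-fold in mean level. A gene is called when its Benjamini-Hochberg adjusted p over all 13280 tested genes is under 0.05 in the quasi-likelihood test of edgeR. Of the 41 genes, 39 had enough counts to be tested, and the 3 calls among them were all in the lower direction, where 0.67% of all tested genes were called lower, 0.745% higher and 1.42% in either direction. With DESeq2 in place of edgeR 6 genes were called, 5 lower and 1, Bambi, higher. DESeq2 also called more of all 13280 tested genes, 405 against 188 with edgeR. Parental and mutant libraries did not overlap for 11 of the 39 genes (28.2%), against 7.52% of all tested genes. Of these 11, 8 were lower in the mutant line, where 4.04% of all tested genes were lower without overlap, and 3 were higher, against 3.49%. One of the higher genes, Bmpr1b, passed the count filter through its mutant libraries, so its lack of overlap is a description. An unadjusted p under 0.05 was found for 14 of the 39 genes, 5 of them higher, against 11.9% of all tested genes. The median log2 difference over the 39 genes was 0.03, against 0 over all tested genes, and the median absolute difference was 0.26, against 0.24. The direction was positive for 21 of the 39 genes, against 50.2% of all tested genes.

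The promoter windows of the 3 called genes are shown because all 3 genes fell. They come from RefSeq on GRCm38.p6 and are read 5′ to 3′ on the gene's own strand. The Bmp4 and Tgfb1 windows end just before the RefSeq start of the gene. The Bmp4 window is chr14:46390670-46390919 on the minus strand, and the Tgfb1 window is chr7:25686752-25687001 on the plus strand. For Id2 only the far end of the window is printed, chr12:25096254-25096342 on the minus strand. The 161 bases nearest the RefSeq start of Id2 are left out because they belong to an exon of a longer annotated transcript. The printed stretch lies within the annotated gene, in an intron of that transcript. Capitals mark the 1 match to GGCGCC, a sequence bound by BMP-responsive SMAD complexes.
Bmp4: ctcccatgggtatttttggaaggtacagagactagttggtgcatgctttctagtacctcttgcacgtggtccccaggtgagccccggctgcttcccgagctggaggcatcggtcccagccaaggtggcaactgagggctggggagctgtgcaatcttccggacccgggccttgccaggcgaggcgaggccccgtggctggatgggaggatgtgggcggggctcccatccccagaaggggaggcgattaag
Tgfb1: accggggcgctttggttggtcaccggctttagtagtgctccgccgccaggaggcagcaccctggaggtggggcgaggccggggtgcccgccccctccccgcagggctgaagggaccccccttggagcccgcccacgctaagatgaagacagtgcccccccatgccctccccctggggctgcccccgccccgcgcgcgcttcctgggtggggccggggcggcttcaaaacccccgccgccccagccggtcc
Id2: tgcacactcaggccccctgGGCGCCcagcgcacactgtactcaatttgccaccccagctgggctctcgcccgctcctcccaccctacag

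Windows of 250 bases were searched on both strands for 3 motifs: GGCGCC, the SMAD palindrome GTCTAGAC and the T-box motif AGGTGTGA. Windows of 29 of the 41 genes were searched, 35 windows in all because some genes have several starts. Bambi, Smad2, Smad4 and Smad7 were left out because of their chromosome, which was not left out of the share over all windows. No window was available for Id1, Bmp2, Bmp7, Tgfb3, Tgfbr3, Skil, Nog and Fst, so these were not searched. GGCGCC was present in 9 of the 35 windows, in 9 genes, and in 9.59% of all 32851 promoter windows. The 9 genes were Id2, Id4, Bmpr1a, Bmpr2, Tgfbr1, Smad5, Smurf2, Grem1 and Chrd. The matched windows of Id2, Bmpr1a, Bmpr2 and Smad5 also hold annotated exon bases of the same gene. GGCGCC is made of G and C only. The 9 windows were 62.8% to 82% G and C, and the share over all windows was not matched for this. GTCTAGAC and AGGTGTGA were present in 0 of the 29 genes, and in 0.167% and 1.12% of all windows. Of the genes with GGCGCC, Id2 was called lower and the other 8 were not called. A match is a description of the letters and not evidence of binding.

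Total counts were between 3803561 and 6293907 per library, and levels are given as CPM, counts set to a common library total, after scaling by the trimmed mean of M values (TMM). QuantSeq reads start near the 3′ end of each transcript, so a level is not divided by transcript length, and levels of different genes can be compared only as far as their 3′ ends were captured alike. Tbx1 had 39, 65, 38 and 22 counts in parental libraries 1 to 4 and 3, 0, 1 and 0 counts in mutant libraries 1 to 4, as the genotype labels state. All 10 listed markers of cardiac and precardiac mesoderm had enough counts to be tested, and their values stand with those of the other cell types. Mutant library 4 stood apart: its correlation of log2 CPM with the other 7 libraries was 0.857 to 0.881, against 0.920 to 0.944 among those 7. It also had counts in 14850 genes, against 18213 to 19134 in the others. Changes without it are given beside some of the genes, and small differences that changed sign stand in the closing section.

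Among the BMP ligands, Bmp4 (ENSMUSG00000021835.15, chromosome 14, 46383520 to 46390669, minus strand, protein coding) was by far the most abundant. Bmp4 levels were 329.3, 413.2, 353.9 and 272.0 CPM in parental libraries 1 to 4. The mutant libraries 1 to 4 had 165.3, 170.0, 63.0 and 111.6 CPM. Every mutant library was below every parental library, and mutant library 3 was the lowest of all. The log2 difference was -1.42 ± 0.22 (SE), with a 95% interval of -1.89 to -0.96 and an edgeR adjusted p of 0.00165. The two-sided exact permutation test over libraries gave p = 0.0286, the smallest that 4 against 4 allows. Every gene whose lines do not overlap gets this value, called or not, so it restates the lack of overlap. Bmp4 was called in each of 15 alternative analyses, with a log2 difference between -1.60 and -1.20 and an adjusted p of at most 0.0128. Without mutant library 4 the difference was -1.37 with an adjusted p of 0.00366.

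**Figure D1:**
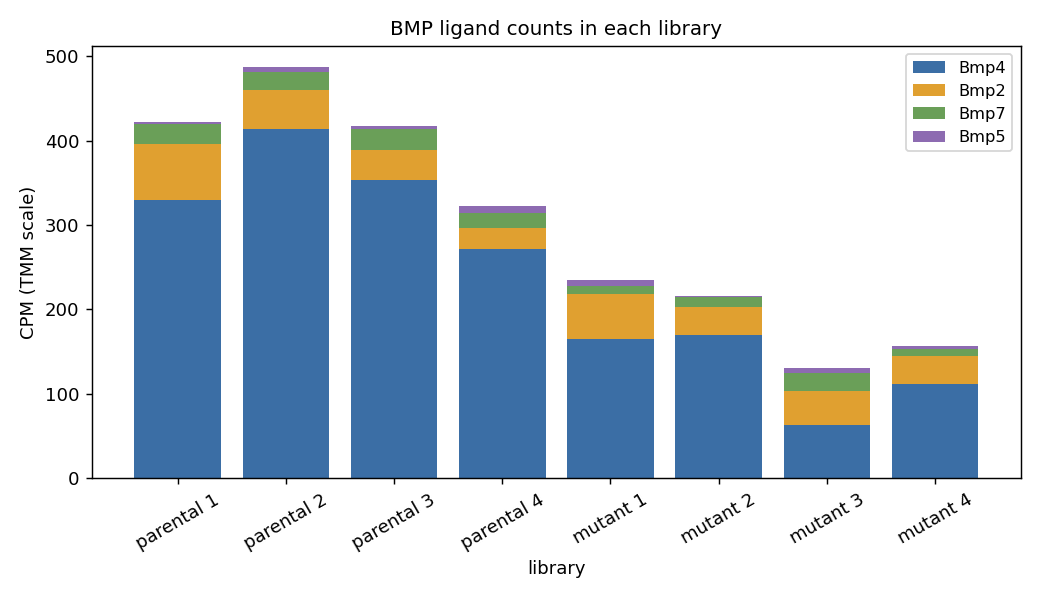
Stacked levels of the 4 BMP ligand genes in CPM on the TMM scale (vertical axis) for each library (horizontal axis). Bmp4 is the largest part of every bar, from 48.1% in mutant library 3 to 84.9% in parental library 3, and all 4 mutant bars are shorter than the parental bars.

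The 4 BMP ligand genes together gave 412.4 ± 68.1 CPM in the parental and 184.7 ± 48.9 CPM in the mutant libraries (SD, n = 4). Bmp4 made up 83.0% ± 3.38 of this sum in parental libraries and 67.1% ± 13.2 in mutant libraries. Mutant library 2, at 78.8%, was above parental library 1, at 77.9%, so the shares overlapped. The other 3 ligands together had 70.3 ± 18.3 CPM in the parental and 57.2 ± 13.6 CPM in the mutant libraries, so most of the lower sum was Bmp4. Bmp7, a ligand with roles in heart and kidney development, had 24.0, 21.2, 24.4 and 17.1 CPM in parental libraries and 9.91, 11.8, 21.3 and 8.25 CPM in the mutant libraries. Of the mutant libraries, number 3 lay inside the parental range for Bmp7 although it had the lowest Bmp4. The Bmp7 log2 difference was -0.75 ± 0.30 (SE), not called with an edgeR adjusted p of 0.311. Without mutant library 4 the Bmp7 difference was -0.60 with an adjusted p of 0.438. Bmp2, which acts in endocardial cushion formation, had a log2 difference of -0.12 with a 95% interval of -0.66 to 0.41. Bmp5 had at most 45 counts in any library, and its interval of -1.39 to 1.11 leaves a large change in either direction undetectable at this depth.

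The TGF-beta ligands were dominated by Tgfb2, the isoform whose loss in mice causes outflow tract defects. Tgfb2 (ENSMUSG00000039239.14, chromosome 1, 186622792 to 186705989, minus strand) had 655.5, 638.1, 637.5 and 708.8 CPM in parental libraries. Mutant libraries had 502.9, 517.7, 551.8 and 590.2 CPM, all below the parental values. The log2 difference of -0.29 ± 0.09 (SE) was not called, with an edgeR adjusted p of 0.150, and its 95% interval was -0.48 to -0.10. DESeq2 called it at an adjusted p of 0.0428, the lowest of its 15 alternatives, which reached 0.314.

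Tgfb1 (ENSMUSG00000002603.15, chromosome 7, 25687002 to 25705077, plus strand) encodes the isoform best known from immune and vascular tissue. It had 32.2, 29.4, 15.3 and 21.1 CPM in parental libraries, and 12.1, 10.5, 9.99 and 7.15 CPM in the mutant libraries. The lines did not overlap, though parental library 3 was close to mutant library 1. The log2 difference was -1.29 ± 0.29 (SE), at an edgeR adjusted p of 0.033. The exact permutation p of 0.0286 only restates the lack of overlap. The Tgfb1 call was less stable than that of Bmp4. It was lost without parental library 1, 2 or 4 (adjusted p of 0.126, 0.153 and 0.0512), without mutant library 2, 3 or 4 (0.0527, 0.0803 and 0.0512) and with limma-voom (0.0677), while the log2 difference stayed between -1.47 and -1.14 in all alternatives.

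Tgfb3 had 0.182 to 6.11 CPM in the parental and 2.91 to 11.1 CPM in the mutant libraries, which overlap, and a log2 difference of 1.16 with an interval of -0.36 to 2.68. Inhba, which encodes the subunit of activin A, had at most 14 counts in any library and was not tested. Of the latent TGF-beta binding proteins, which hold secreted TGF-beta in the matrix, Ltbp3 had at most 15 counts and was not tested either. Ltbp1 (ENSMUSG00000001870.16, chromosome 17, 75005568 to 75392512, plus strand) had 54.0, 59.7, 59.5 and 62.2 CPM in parental libraries. Its mutant values were 42.0, 52.5, 42.0 and 50.6 CPM, below all parental values by a small margin. The Ltbp1 log2 difference was -0.33 ± 0.16 (SE), not called with an edgeR adjusted p of 0.410.

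**Figure D2:**
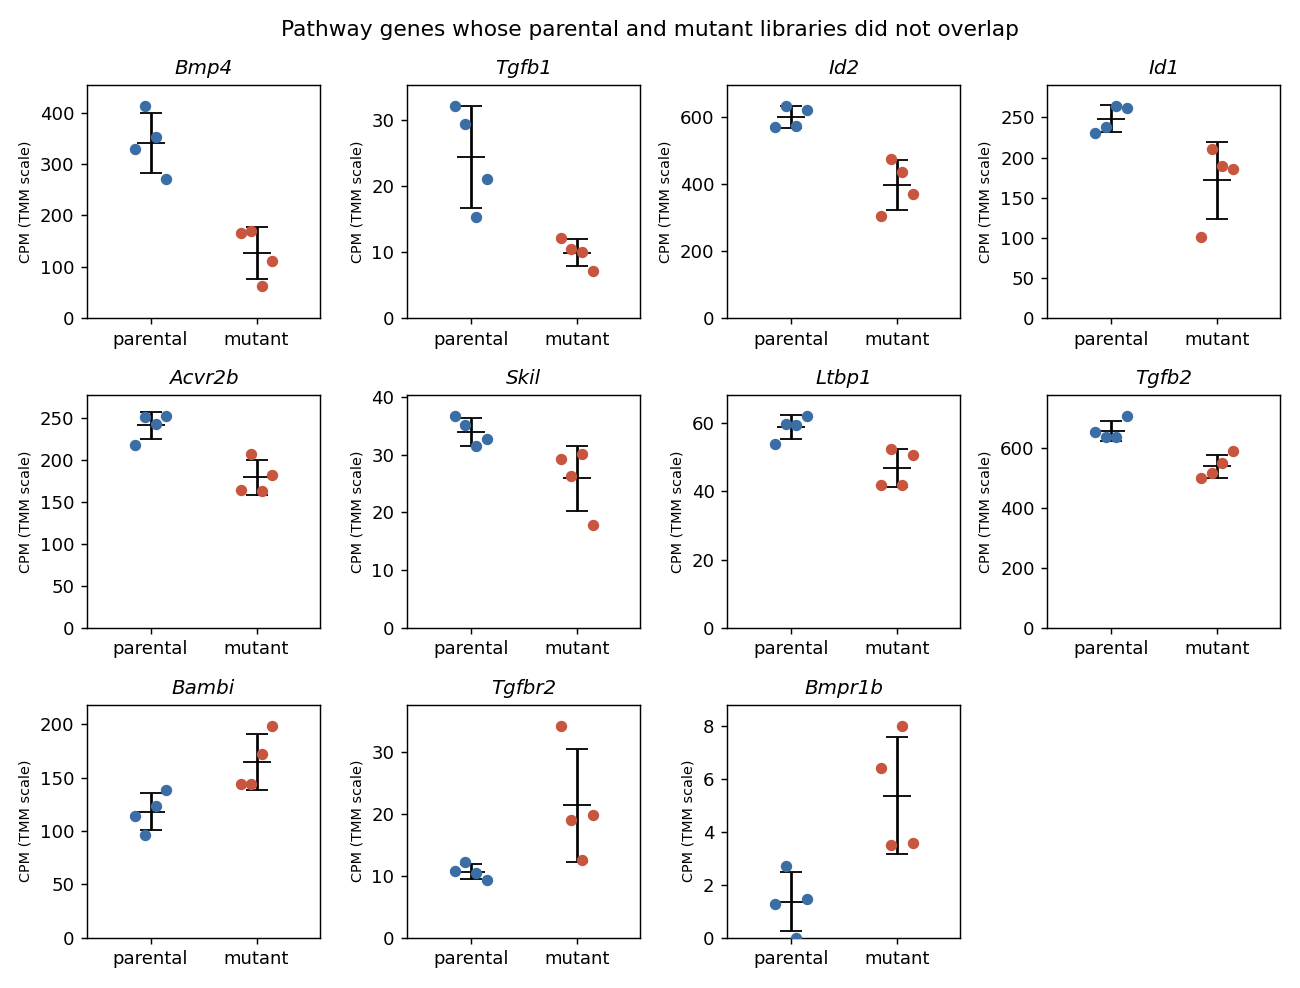
Levels in CPM on the TMM scale (vertical axes, each from 0) of the 11 tested pathway genes whose parental and mutant libraries did not overlap. Points are libraries in order of their number, and bars are the mean and SD of 4 libraries. The upper 2 rows hold 8 genes that were lower in every mutant library, and the bottom row holds Bambi, Tgfbr2 and Bmpr1b, which were higher.

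No receptor gene was called among the 10 tested. Parental and mutant values were fully apart in 3, where 7.52% of all tested genes were, and these 3 differed in direction. Of the 3, Bmpr1b passed the count filter through its mutant libraries, so its separation is a description. Acvr2b (ENSMUSG00000061393.14, chromosome 9, 119402118 to 119434995, plus strand), a type II receptor for activins and some BMPs, was the most abundant receptor. Its parental values were 217.8, 250.6, 242.9 and 252.2 CPM, and its mutant values 164.1, 206.8, 162.9 and 182.3 CPM. All mutant libraries were lower, with a log2 difference of -0.43 ± 0.11 (SE) and an edgeR adjusted p of 0.07. Acvr2b was past the threshold in 4 of 15 alternatives, namely DESeq2 (0.0114), limma-voom (0.0357), the absence of a low-count filter (0.0359) and the analysis without mutant library 2 (0.0342). Over all alternatives its adjusted p ran from 0.0114 to 0.235.

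Tgfbr2 (ENSMUSG00000032440.13, chromosome 9, 116084293 to 116175360, minus strand), the type II receptor for TGF-beta itself, was higher in all mutant libraries. It had 10.7, 12.2, 10.5 and 9.27 CPM in parental libraries and 34.3, 19.0, 12.5 and 19.8 CPM in the mutant libraries. Mutant library 1 was the highest and mutant library 3 was just above the parental range. The log2 difference was 1.00 ± 0.31 (SE), not called with an edgeR adjusted p of 0.139, and without mutant library 1 it was 0.67. Tgfb1 and its receptor therefore had differences of opposite sign, of which only that of Tgfb1 was called.

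Bmpr1b, a type I BMP receptor, had 7, 15, 0 and 7 counts in parental libraries and 38, 16, 44 and 13 counts in mutant libraries. All 4 mutant libraries but only 1 parental library reached the level the count filter asks of 4 libraries. In CPM the lines did not overlap, at 0 to 2.69 in parental and 3.49 to 7.99 in mutant libraries. The log2 difference of 1.98 ± 0.82 (SE) had an edgeR adjusted p of 0.333, and its interval of 0.25 to 3.71 is wide because the counts are few. Bmpr1a, another type I BMP receptor, was more abundant at 89.3 ± 9.69 CPM in the parental and 75.4 ± 11.8 CPM in the mutant libraries (SD, n = 4). Its log2 difference was -0.24.

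Acvr1, a type I receptor for BMPs, had 11.5, 16.2, 17.1 and 21.5 CPM in the parental and 32.6, 14.4, 25.4 and 28.9 CPM in the mutant libraries. Mutant library 2 fell inside the parental range and the other mutant libraries were above it. The log2 difference of 0.62 ± 0.28 (SE) was not called (edgeR adjusted p of 0.392). Bmpr2, a type II BMP receptor, had 60.9, 68.4, 76.3 and 61.1 CPM in the parental and 84.8, 74.1, 85.9 and 102.3 CPM in the mutant libraries, where mutant library 2 again lay within the parental range. Its log2 difference was 0.38 ± 0.15 (SE), at an edgeR adjusted p of 0.280. For Tgfbr1, the type I TGF-beta receptor, the difference was 0.07 with an interval of -0.27 to 0.40. Acvr1b, Acvr2a and the co-receptor gene Tgfbr3 had differences of -0.16, 0.05 and 0.03.

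None of the 5 genes for receptor SMADs and the shared SMAD4 was called or separated the lines. Smad5 was the most abundant, with 136.2, 154.1, 132.6 and 146.7 CPM in the parental and 130.7, 148.0, 156.4 and 221.9 CPM in the mutant libraries. Mutant library 4 was the highest and the other 3 mutant libraries overlapped the parental ones. The log2 difference of Smad5 was 0.20 with an interval of -0.10 to 0.51, and 0.02 without mutant library 4. Smad4 had a difference of -0.01 and an interval of -0.27 to 0.25, the narrowest of the 5 intervals. Intervals for Smad1, Smad2 and Smad3 ran from -0.33 to 0.38, from -0.37 to 0.54 and from -0.05 to 0.58. RNA levels do not measure SMAD phosphorylation.

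Among the intracellular inhibitors, Skil, which encodes the SMAD co-repressor SnoN, was lower in every mutant library. It had 36.7, 35.2, 31.4 and 32.7 CPM in the parental and 29.2, 26.4, 30.2 and 17.9 CPM in the mutant libraries. The margin between parental library 3 and mutant library 3 was small, and the log2 difference of -0.39 ± 0.21 (SE) was not called (edgeR adjusted p of 0.505). Without mutant library 4, the lowest, the Skil difference was -0.25 with an adjusted p of 0.694. Smurf2, a ubiquitin ligase acting on SMADs and receptors, was the most abundant of this group. Its levels were 49.8, 51.0, 44.5 and 64.3 CPM in the parental and 53.3, 43.8, 52.3 and 83.3 CPM in the mutant libraries, which overlap. Smad6 and Smad7, the inhibitory SMADs and themselves targets of the pathway, had log2 differences of 0.16 (interval -0.32 to 0.65) and 0.08 (interval -0.30 to 0.46), and Smurf1 had 0.04.

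Bambi (ENSMUSG00000024232.2), which encodes a membrane protein like a type I receptor without a kinase domain, was higher in every mutant library. It had 114.2, 96.2, 123.7 and 138.4 CPM in parental libraries, and 143.8, 144.0, 172.4 and 198.5 CPM in the mutant libraries. Parental library 4 came within a few CPM of mutant libraries 1 and 2. The log2 difference was 0.48 ± 0.14 (SE), at an edgeR adjusted p of 0.111, and was past the threshold with DESeq2 (0.0429) and without a low-count filter (0.0402). Without mutant library 4 it was 0.38 with an adjusted p of 0.244, and the highest adjusted p over the alternatives was 0.393.

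The secreted antagonists were low in both lines. Follistatin, encoded by Fst and a binder of activin, had 8.22 to 19.2 CPM in the parental and 11.1 to 20.2 CPM in the mutant libraries, with a log2 difference of 0.41 (interval -0.26 to 1.09). Noggin and chordin, encoded by Nog and Chrd, bind BMPs directly. Nog had 29, 13, 5 and 13 counts in parental and 6, 37, 3 and 2 counts in mutant libraries, and Chrd had 19, 35, 18 and 14 against 12, 7, 24 and 58. In each, a single mutant library held most of the mutant counts, library 2 for Nog and library 4 for Chrd. The Chrd log2 difference was 0.59 with all libraries and -0.56 without mutant library 4. Grem1, which encodes the BMP antagonist gremlin, had 12, 5, 13 and 19 counts in parental libraries and 1, 14, 0 and 0 in mutant libraries, with a log2 difference of -1.49 and an interval of -3.84 to 0.86. Mutant library 2 held most of the mutant Grem1 counts, and without it the difference was larger, at -4.72. The Grem1 difference was -2.80 with the replicate block and -2.70 with limma-voom. Grem1 was not called in any of these, at adjusted p of 0.138, 0.53 and 0.414. No change of Nog, Chrd or Grem1 was detectable at this depth.

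Target genes were led by Id2 (ENSMUSG00000020644.9, chromosome 12, 25093799 to 25097140, minus strand). Id proteins bind basic helix-loop-helix factors and keep them from DNA. Id2 had 571.9, 633.1, 572.9 and 622.8 CPM in parental libraries, a spread of 5.40% of the mean, and 304.9, 474.2, 435.9 and 370.3 CPM in the mutant libraries. Every mutant library was lower, with mutant library 1 the lowest. The log2 difference was -0.60 ± 0.12 (SE), with an interval of -0.85 to -0.35 and an edgeR adjusted p of 0.0124. The exact permutation p of 0.0286 only restates the lack of overlap. Id2 was called in 14 of 15 alternatives, and the call was lost without parental library 2, at an adjusted p of 0.0692.

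Id1 (ENSMUSG00000042745.9, chromosome 2, 152736251 to 152737410, plus strand) had 230.0, 237.9, 264.1 and 261.3 CPM in parental libraries. Mutant libraries had 101.5, 210.5, 189.3 and 185.6 CPM, all lower, and mutant library 1 was again the lowest. The log2 difference was -0.53 ± 0.17 (SE), at an edgeR adjusted p of 0.137. With the replicate number as a block the adjusted p was 0.0497, within a range of 0.00211 to 0.318 over the alternatives, and without mutant library 1 the difference was -0.35. Id3 had 288.6, 312.2, 320.6 and 225.5 CPM in the parental and 209.0, 286.8, 216.5 and 224.3 CPM in the mutant libraries. Mutant library 2 and parental library 4 kept the lines from separating, and the log2 difference was -0.29 ± 0.13 (SE), not called with an edgeR adjusted p of 0.373. For all 3 of these genes mutant library 1 was the lowest and mutant library 2 the highest of the mutant libraries. Bmp4 was also highest in mutant library 2, at 170.0 CPM against 165.3 CPM in mutant library 1, but lowest in mutant library 3.

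The other targets did not separate the lines. Id4 was far less abundant than Id1, Id2 and Id3, at 12.4 ± 3.45 CPM in the parental and 12.6 ± 6.28 CPM in the mutant libraries (SD, n = 4). Its log2 difference of 0.03 had an interval of -0.77 to 0.82 and changed sign in some alternatives. The homeobox gene Msx1 had a level near that of Id1 in the parental line, at 249.7 ± 20.6 CPM in the parental and 229.2 ± 32.6 CPM in the mutant libraries. The log2 difference of Msx1 was -0.13 with an interval of -0.37 to 0.12, and that of Msx2 was 0.14 with an interval of -0.41 to 0.68.

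**Figure D3:**
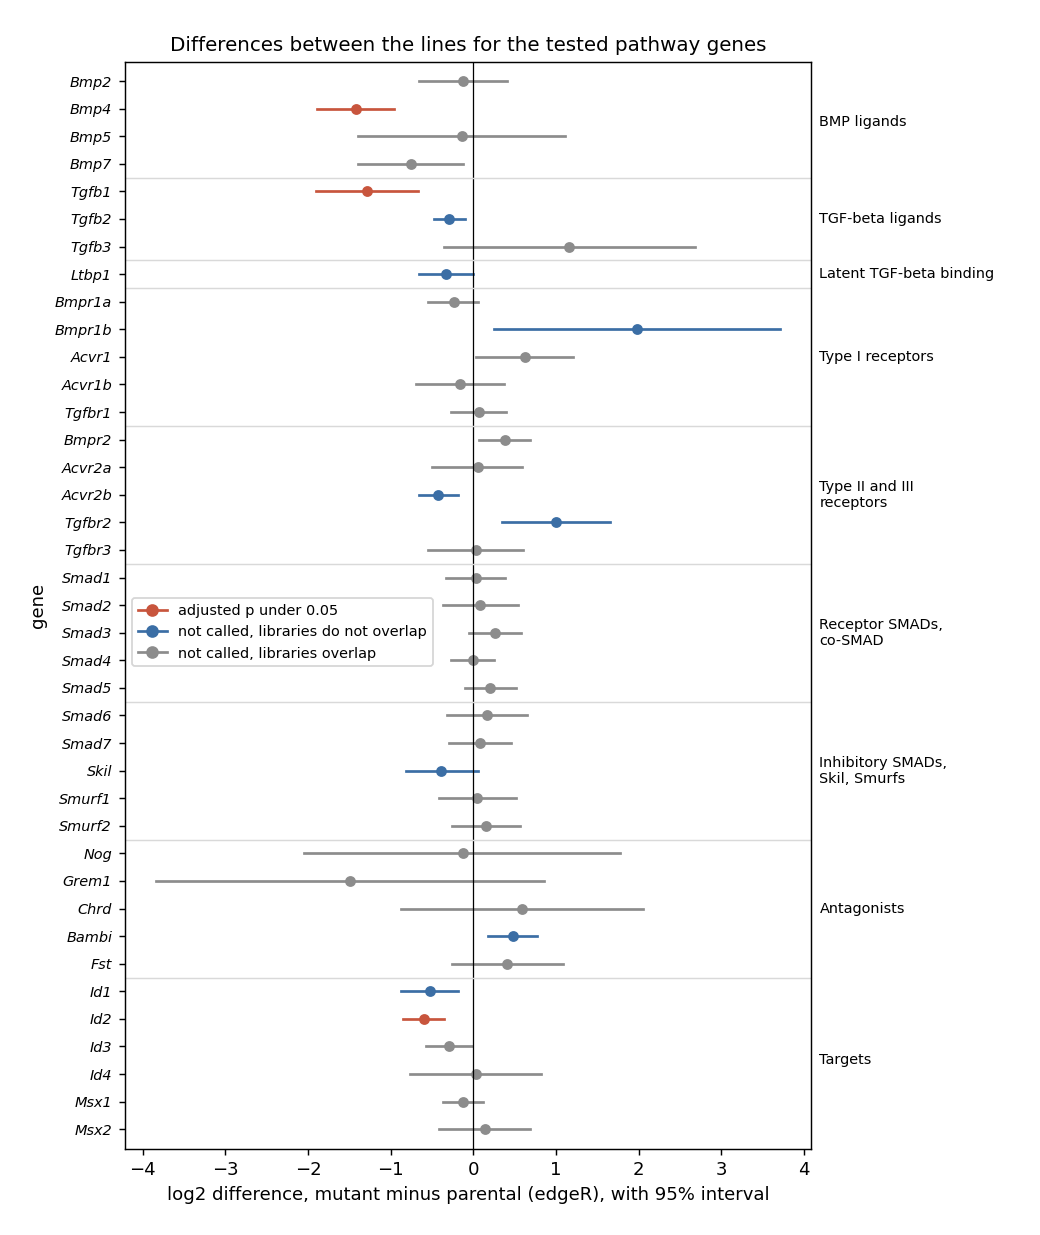
Log2 difference of mutant minus parental (horizontal axis) with its 95% interval for the 39 tested pathway genes (vertical axis), grouped by role. Bmp4, Tgfb1 and Id2 were called at -1.42, -1.29 and -0.60. Intervals of the receptor SMADs and of Smad6 and Smad7 all include 0, and those of Grem1, Nog and Bmpr1b are the widest.

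The spread between libraries differed widely among these genes. In parental libraries the SD was 3.64% of the mean for Tgfbr1, the lowest of the 39 tested genes, and 85.6% for Tgfb3, the highest. The median was 15.0% in parental and 23.0% in mutant libraries. For Bmp4 the SD was 17.1% of the mean in parental libraries, where counting error alone would give 2.31%, and 39.6% in mutant libraries.

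A further 85 genes of the same pathways were listed to see whether the pattern extended beyond the 41. Of these, 49 had enough counts to be tested, and 0 were called by edgeR, against 1.42% of all tested genes. With so small a share, 0 calls among 49 genes cannot show whether the pattern extended. An unadjusted p under 0.05 was found for 5 (10.2%), against 11.9% of all tested genes. DESeq2 called 2 and limma-voom 1, where they called 405 and 252 of all 13280 tested genes. Without overlap between the lines were 3 of the 49 genes (6.12%, against 7.52% of all tested genes). These 3 had the smallest p of the list. Hand1, a cardiac transcription factor that responds to BMP, had 630.6, 625.2, 567.8 and 637.8 CPM in the parental and 378.8, 415.3, 547.8 and 534.7 CPM in the mutant libraries. Its log2 difference was -0.39 ± 0.12 (SE), at an edgeR adjusted p of 0.115, and DESeq2 gave 0.0388, within a range of 0.0233 to 0.305 over the alternatives. Bmp1, which despite its name encodes a protease that cleaves procollagens and chordin, had 35.8, 20.3, 24.3 and 35.4 CPM in the parental and 49.9, 39.0, 46.3 and 56.9 CPM in the mutant libraries. Its log2 difference was 0.73 ± 0.21 (SE) and its edgeR adjusted p was 0.108. Fbn1, which encodes a fibrillin of the microfibrils that hold latent TGF-beta, had 55.0 ± 8.62 CPM in the parental and 76.4 ± 10.1 CPM in the mutant libraries (SD, n = 4), a log2 difference of 0.47 and an edgeR adjusted p of 0.189. Among further ligands only Gdf11, Nodal and Inha could be tested, and of the 21 listed the other 18 were too low.

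Markers of other cell types were read beside these results, because in bulk RNA fewer cells of a type and less RNA per cell cannot be told apart. Of all tested genes, 1.42% were called and 7.52% had lines that did not overlap, and the marker lists are short. The 9 endothelial and haematopoietic markers summed to 478.4 to 760.8 CPM in the parental and 1017 to 1691 CPM in the mutant libraries, without overlap, and 2 of the 9, Hba-x and Hbb-bh1, were called higher. Without these 2 globins the sum was 375.1 to 606.6 CPM in the parental and 436.0 to 854.7 CPM in the mutant libraries, with overlap. Tal1 was also higher in every mutant library, with a log2 difference of 0.76, but was not called (edgeR adjusted p of 0.131). Of the 9 markers 7 had a positive and 2 a negative log2 difference. Endoderm markers summed to 206.1 to 338.8 CPM in the parental and 183.6 to 229.0 CPM in the mutant libraries, and 2 of 6, Foxa2 and Krt18, were called lower. The 10 cardiac and precardiac mesoderm markers summed to 970.3 to 2165 CPM in the parental and 1043 to 1246 CPM in the mutant libraries, with 1 called, Gata6, which was higher. Of the 10 cardiac markers 8 had a negative log2 difference, with a median of -0.69 over the 10, and none of the 8 was called. An unadjusted p under 0.05 was found for 5 of these 8, against 11.9% of all tested genes. They were Myl7 at -1.65, Tnnt2 at -1.25, Gata4 at -0.72, Isl1 at -0.67 and Mef2c at -0.63. Their edgeR adjusted p were 0.199, 0.147, 0.266, 0.108 and 0.331. Isl1 was lower in every mutant library, while the lines overlapped for Myl7, Tnnt2, Gata4 and Mef2c. Myl7 had 702.6, 352.2, 151 and 88.5 CPM in the parental and 131.7, 127.5, 142 and 8.25 CPM in the mutant libraries. Gata6 and Hand2 were higher in every mutant library. The 4 pluripotency markers summed to at most 11.4 CPM and the 5 neural markers to at most 44.4 CPM in any library, and none was called. The part of these cell types, cardiac mesoderm included, in the lower Bmp4, Tgfb1 and Id2 was not tested.

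**Figure D4:**
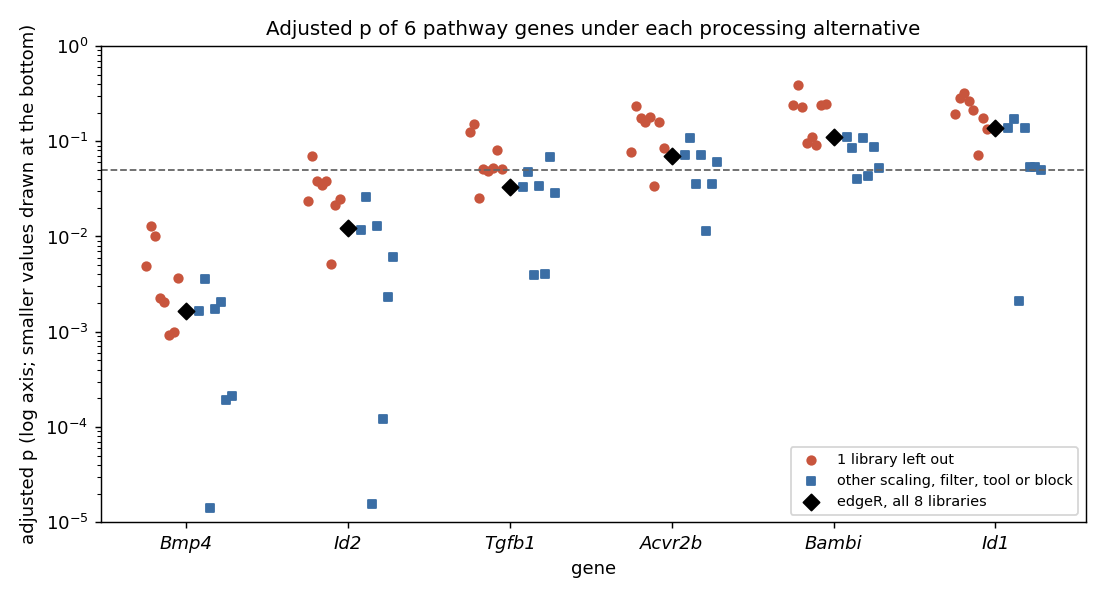
Adjusted p (vertical log axis, values under the axis drawn at its lower edge) of 6 pathway genes with all 8 libraries (diamonds), with 1 library left out (circles) and with another scaling, filter, tool or a replicate block (squares). The dashed line is the threshold of 0.05. All Bmp4 points lie below it, 1 Id2 point lies above it, and those of Tgfb1, Acvr2b, Bambi and Id1 fall on both sides.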

How the data were processed

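RNA from 4 parental and 4 mutant cultures was sequenced with QuantSeq, per the labels' protocols. The authors deposited raw counts per gene and library, made with STAR and featureCounts on mm10, per the submitters' processing notes, and on the forward strand, per the file's name. Tool versions and the gene annotation are not given in the sources used here. Gene symbols and coordinates came from GENCODE M21 (GRCm38), which gave a symbol to 55227 of 55487 rows.

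Genes passing edgeR's filterByExpr (13280, with 99.5% of counts) were scaled by TMM and compared with edgeR 4.0.16 (glmQLFit, glmQLFTest; R 4.3.3), with line as the only term, two-sided, and Benjamini-Hochberg adjustment over all tested genes at 0.05. SE is the log2 difference divided by the root of F, and intervals use that test's degrees of freedom. Exact permutation tests used log2(CPM + 1) over 70 assignments. The code was tested on simulated data. Same-numbered libraries gave correlations of deviations between -0.033 and 0.102, so the number was a block only in an alternative. No 2 libraries of a line agreed within sampling noise (chi-square per degree of freedom of 7.04 to 24.2). Alternatives were RLE, library size alone, no filter, DESeq2 1.42.0, a filter on a mean count of 10, limma-voom (3.58.1), the block, and each library left out.

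Members, lists and motifs were chosen with earlier results of these data known. Named in full were members called, with an unadjusted p under 0.05 or without overlap, the most abundant member per role, and the 3 other pathway genes with the smallest p. Promoter windows are from RefSeq (GRCm38.p6), and their bases after the gene's start were not used.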

Additional observations from a re-analysis of the deposited data

Results flagged for a closer look

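In 10 sets of 4 libraries, 1 library lay far from the other 3 by Dixon's criterion, whose critical value for 4 is 0.829. Chance gives about 1 in 20 sets, and 78 sets were examined. Mutant library 2 was high for Bmpr1a, at 93.0 CPM against 68.9 to 70.3 in the others, for Nog, at 8.06 CPM against 0.545 to 1.01, and for Grem1, at 3.05 CPM against 0 to 0.168. Mutant library 4 was high for Tgfbr1, at 84.7 CPM against 56.8 to 59.9, and for Msx1, at 277.7 CPM against 208.0 to 219.6, and low for Smad2, at 18.97 CPM against 30.5 to 32.1. Mutant library 1 was high for Smurf1, at 49.1 CPM against 26.4 to 29.4. In the parental line, library 1 was high for Acvr1b, at 27.3 CPM against 21.2 to 22.02, library 2 for Chrd, at 6.28 CPM against 2.87 to 3.46, and library 3 for Msx1, at 280.5 CPM against 237.0 to 240.9. None of these genes was called.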

How the results depend on the processing

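Bmp4 kept its direction and its call in all 15 alternatives. The number of pathway genes called was 3, and moved to 6 with no low-count filter and to 6 with DESeq2, and it was 1 to 3 when each library was left out. With the replicate block it was 4, adding Id1, and the block changed no other call among the named genes. For all genes the count was 188 of 13280 tested, against 439 of 26750 with no filter and 405 of 13280 with DESeq2. It was 234 of 13280 with the replicate block. With a library left out it was 103 to 235, where 13673 to 13823 genes were tested. Library size alone gave 157, of which 100 were higher and 57 lower, against 99 and 89. Of the other pathway genes 0 were called, against 3 with no filter, 2 with DESeq2 and 1 with limma-voom. The cause of these shifts was not tested. Signs changed for genes that were not called: with limma-voom Chrd was -0.12, against 0.59 in edgeR, and Id4 was -0.02, with the replicate block Id4 was -0.07, and with library size alone Smad4 was 0.02. With a library left out the log2 differences ranged from -0.28 to 0.01 for Acvr1b, -0.05 to 0.16 for Acvr2a, -0.32 to 0.15 for Bmp2, -0.47 to 0.18 for Bmp5, -0.56 to 0.91 for Chrd, -0.24 to 0.26 for Id4, -0.01 to 0.25 for Msx2, -1.94 to 0.37 for Nog, -0.07 to 0.11 for Smad1, -0.06 to 0.07 for Smad4, -0.02 to 0.27 for Smad6, -0.01 to 0.19 for Smad7, -0.21 to 0.14 for Smurf1, -0.07 to 0.26 for Smurf2, -0.09 to 0.12 for Tgfbr1 and -0.21 to 0.16 for Tgfbr3. Grem1 was below the filter of a mean of 10 counts and has no value there.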
